A study of Mus musculus with 2 samples.

Results

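The genes described here encode the enzymes that attach ubiquitin to histones H2A and H2B and their partners: Rnf20, Rnf40, Ube2a, Ube2b, Wac, Rnf8, Rnf168, Ring1 and Rnf2. The 9 genes were chosen by name from this pathway with their CREM signal already known, and they are 9 of 17342 gene names measured. CREM belongs to the CREB family of transcription factors and is abundant in haploid male germ cells. In the experiment, formaldehyde-fixed germ cells came from pooled testes of adult male C57BL/6 mice, a pool of 5 per the labels. They were precipitated with an antibody against CREM (sc-440) or, for the control, with goat IgG. CREM DNA carried Cy5 and IgG DNA carried Cy3, and the pair was hybridised to a 2-array promoter set, with 1 hybridisation per array. The 2 samples of the series are these 2 arrays, and both have the same strain, sex, age and antibodies. There was no repeat and no dye swap, so no test across samples and no p-value can be given, and dye and antibody cannot be told apart. The precipitated DNA came from germ cells of whole testes and carries no expression, so the cells in which a signal arose, spermatids included, could not be checked with markers.

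Ubiquitin is attached to histones by E2 conjugating enzymes working with E3 ligases. RNF20 and RNF40 form a ligase that works with UBE2A or UBE2B to modify H2B in transcribed genes, and WAC links that ligase to the elongating polymerase. RNF8 and RNF168 ubiquitinate H2A-type histones and linker histone at DNA breaks and on the silenced sex chromosomes of meiosis, while RING1 and RNF2 are the alternative catalytic subunits of polycomb repressive complex 1. In elongating spermatids histone ubiquitination precedes the replacement of histones by transition proteins and protamines, and male mice without UBE2B or RNF8 have impaired spermatogenesis.

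Every ratio below is log2 of CREM over IgG signal, centred on the array's median, so 1 is 2-fold on the side of CREM and -1 is 2-fold on the side of IgG. A window is 3 neighbouring probes and its value is their median. A gene's highest window at 1 or more counts as called on the CREM side, and its lowest window at -1 or less counts on the IgG side. The IgG side is given for comparison and does not measure false calls on the CREM side. Probes of the 2 sides differed in GC content and in IgG brightness, as given below. Of the 9 genes, 5 were called on the CREM side: Ube2b at 3.37, Rnf20 at 3.36, Ring1 at 2.12, Rnf40 at 1.64 and Rnf168 at 1.04. On array 1 these were 2 of 3 genes, where 33.3% of all genes were called, and on array 2 they were 3 of 6, where 35.5% were called. Wac at -2.07, Ring1 at -1.77 and Rnf8 at -1.01 had a window on the IgG side, all on array 2, where 32.9% of all genes had one (34.4% on array 1). Ring1 was on both lists, and Ube2a and Rnf2 were on neither. Since the genes were picked with these values in view, the counts are a description and carry no test.

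The threshold passed close to several of the genes. Rnf168, at 1.04, was the last gene inside it and Wac, with a highest window of 0.79, the first outside. On the IgG side Rnf8 was just inside at -1.01, and Ube2a at -0.96 and Rnf2 at -0.94 were just outside. No measured probe was printed more than once, so the spot error was taken from control probes with at least 12 spots. Their median SD was 0.0812 on array 1 and 0.102 on array 2 where IgG was well above background, and 0.276 and 0.484 where it was not. The distances of Rnf168, Rnf8, Ube2a and Rnf2 from the threshold were smaller than that spread. These SDs cover repeated spots of one hybridisation and leave out variation between animals, precipitations and labellings.

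**Figure D1:**
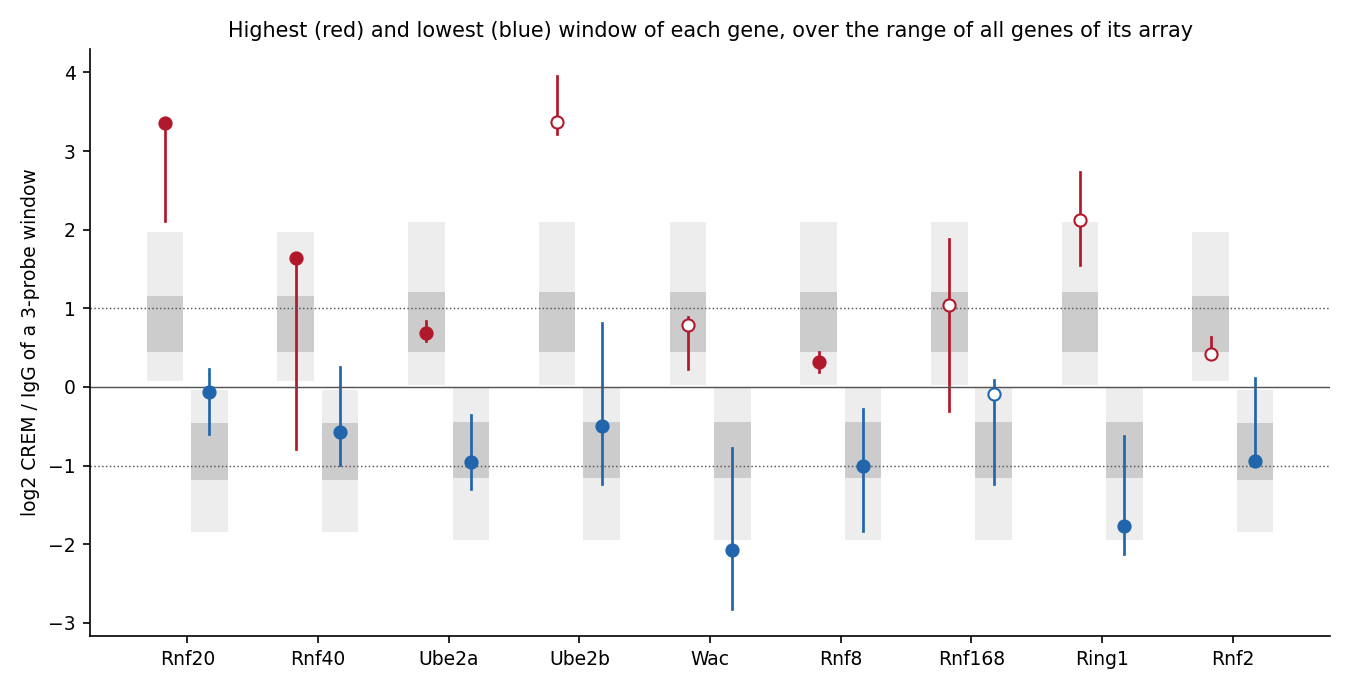
Highest window (red) and lowest window (blue) of each gene, as log2 of CREM over IgG; the thin line spans the window's 3 probes, and an open point has a probe that is not well above background in a channel. Dark grey boxes span the quartiles and light grey boxes the 5th to 95th percentiles of all genes of the same array, and dotted lines mark the 2-fold thresholds. Ube2b at 3.37 and Rnf20 at 3.36 stood highest, and Wac at -2.07 lowest.

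Rnf20 and Ube2b, the ligase and the conjugating enzyme of H2B ubiquitination with the 2 highest windows, are shown first through the probes that carried the signal. The sequences are those printed on the arrays, with the plus strand of build mm9 as the reading direction for 99.7% of the probes that could be placed on a promoter. Capitals mark TGACG or CGTCA, the core of the cAMP response element to which factors of the CREB family bind. The Rnf20 window lies at chr4:49644131-49644703 and the Ube2b window at chr11:51814438-51814806, and the probes are given in the order of their positions.
Rnf20 probe at 2.12: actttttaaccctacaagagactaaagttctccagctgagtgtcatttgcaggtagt
Rnf20 probe at 3.36: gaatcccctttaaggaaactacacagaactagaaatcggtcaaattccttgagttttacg
Rnf20 probe at 3.41: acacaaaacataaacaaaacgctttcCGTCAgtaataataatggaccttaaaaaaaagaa
Ube2b probe at 3.96: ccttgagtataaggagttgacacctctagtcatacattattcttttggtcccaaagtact
Ube2b probe at 3.22: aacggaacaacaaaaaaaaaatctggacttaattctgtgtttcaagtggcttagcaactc
Ube2b probe at 3.37: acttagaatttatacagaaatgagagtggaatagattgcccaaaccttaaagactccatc
Of these 6 probes only the Rnf20 probe with the highest ratio holds the core. Their GC content ran from 28.3% to 40.4%, and the median of all probes used was 40.4% on both arrays.

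Rnf20 encodes a RING-finger ligase subunit, and its highest window was bright in both channels. The 3 probes of the window gave IgG signals of 513, 1575 and 1604 and CREM signals of 2261, 16405 and 17397. All 3 had IgG well above background, and the window's ratio was 10.2-fold. It ranked 8 of 8672 genes on array 1. Together with the next probe, at 0.54, the window formed a CREM-side region of 824 bp, from 49644131 to 49644954.

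A further CREM-side region of 1296 bp lay at chr4:49645277-49646572, with a top window of 1.51. In 5 of its 8 probes IgG was not well above background. The highest of them had a ratio of 2.26 on signals of 181 for IgG and 883 for CREM. With dim IgG set to the lowest signal called well above background, it was 2.84-fold. On the same setting the dim probes at 1.97, 1.51 and 1.02 stood at -0.28, 0.78 and -1.19. The dim probe at 0.75 was unchanged. The probe at 49645887 was bright in both channels, with 1758 for IgG and 4020 for CREM, and had a ratio of 1.17. Between the 2 regions a probe at 49645116 stood at 0.15, near the array median. The lowest window of Rnf20 was -0.07, and 0 of its 27 probes were at -1 or less. No probe matched the RefSeq promoter of Rnf20, so distances to its start are not given.

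Rnf40, which encodes the partner subunit of RNF20, had lower ratios over a shorter stretch. Its highest window, chr7:134732652-134732981, held probes at -0.79, 1.66 and 1.64, so that the probe nearest the start went against the other 2. The probe at 1.66 had signals of 1432 for IgG and 4595 for CREM, and the probe at 1.64 had 663 and 2096. The window lay 213 to 542 bp downstream of the second RefSeq start. A region of 876 bp followed, 928 to 1803 bp downstream, with a top window of 1.02, probes at -0.86, 1.49, 1.02 and 0.11, and IgG not well above background for the probe at 1.49. Rnf40 ranked 868 of 8672 genes on array 1, and 4 of its 44 probes reached 1. With normexp background correction its highest window was 0.63 and the call was lost.

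Ube2b encodes one of the 2 near-identical E2 enzymes of this pathway. Its highest window lay 150 to 518 bp upstream of the first RefSeq start. The probe closest to the start had signals of 559 for IgG and 8795 for CREM, both well above background, and a ratio of 3.96. For the other 2 probes IgG was not well above background, at 193 and 160, against CREM signals of 1825 and 1678. With dim IgG set to the lowest signal called well above background, CREM over IgG was 6.26-fold and 5.76-fold. Farther upstream the ratio stepped down: the next 3 probes were between 1.49 and 1.76 and the last 2 at 0.76 and 1.57, each bright in both channels. Together they made a CREM-side region of 1674 bp, chr11:51814196-51815869, that reached from 92 bp downstream to 1581 bp upstream of the start. As the window's median rests on a dim IgG signal, no rank among the genes is given for it. With only probes bright in both channels its highest window was 1.57, and with normexp it was 1.81.

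On the other side of the first Ube2b start the ratios were lower. The probes centred 70, 176 and 298 bp downstream of it stood at 0.26, -1.24 and -0.49, with GC contents of 60.0%, 62.2% and 73.3%. The second RefSeq start of Ube2b lies within the probe at -0.49. The probes at -1.24 and 0.26 are upstream of that second start, at positions -141 to -97 and -247 to -203. A weaker region of 855 bp lay 1295 to 2149 bp downstream of the first start, with probes at -0.12, 1.05, 1.12 and 0.10. Of these, the probe at 1.12 had IgG not well above background. The RefSeq promoter of the first Ube2b start holds the full response element, TGACGTCA, in capitals below, from position -1 to 6 where 0 is the first transcribed base. The sequence is chr11:52000767-52001036 of build GRCm38.p6, minus strand, from 250 bases before the start to 20 bases from it on, and the complement of the probe at 3.96 lies within it.
Ube2b promoter: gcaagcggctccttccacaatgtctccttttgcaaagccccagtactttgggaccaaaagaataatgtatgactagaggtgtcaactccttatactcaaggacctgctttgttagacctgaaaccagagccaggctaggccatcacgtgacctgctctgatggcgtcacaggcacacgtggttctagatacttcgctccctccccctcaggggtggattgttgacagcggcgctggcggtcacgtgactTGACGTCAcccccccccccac
No probe covers the element. The probe at 3.96 ends 148 bp from it on the upstream side, and the probe at 0.26 ends 41 bp from it on the other. The full element was found in 1 of 10 promoter sequences of 8 of the genes, against 1.79% of all 32851 RefSeq promoters of this length, and the core in 5 of 10, against 20.8%, both strands read. The 5 sequences belong to 3 genes, Rnf40 and Ube2b with 2 starts each and Ring1, and those of Rnf40 overlap.

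Ube2a, the X-linked copy of this conjugating enzyme, did not reach the threshold on either side in the values used here, and reached -1.03 on the IgG side with the GC trend removed and -1.13 with windows of 2 probes. Its highest window was 0.68, at chrX:34415184-34415547, 894 to 1257 bp downstream of the start, with 3 probes between 0.58 and 0.84. The 3 probes within 250 bp of its start stood at -0.37, -0.54 and -1.32, with IgG signals from 1932 to 5799. Its lowest window, -0.96, was 3983 to 4498 bp upstream. Of its 34 probes used, 0 reached 1 and 4 were at -1 or less.

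**Figure D2:**
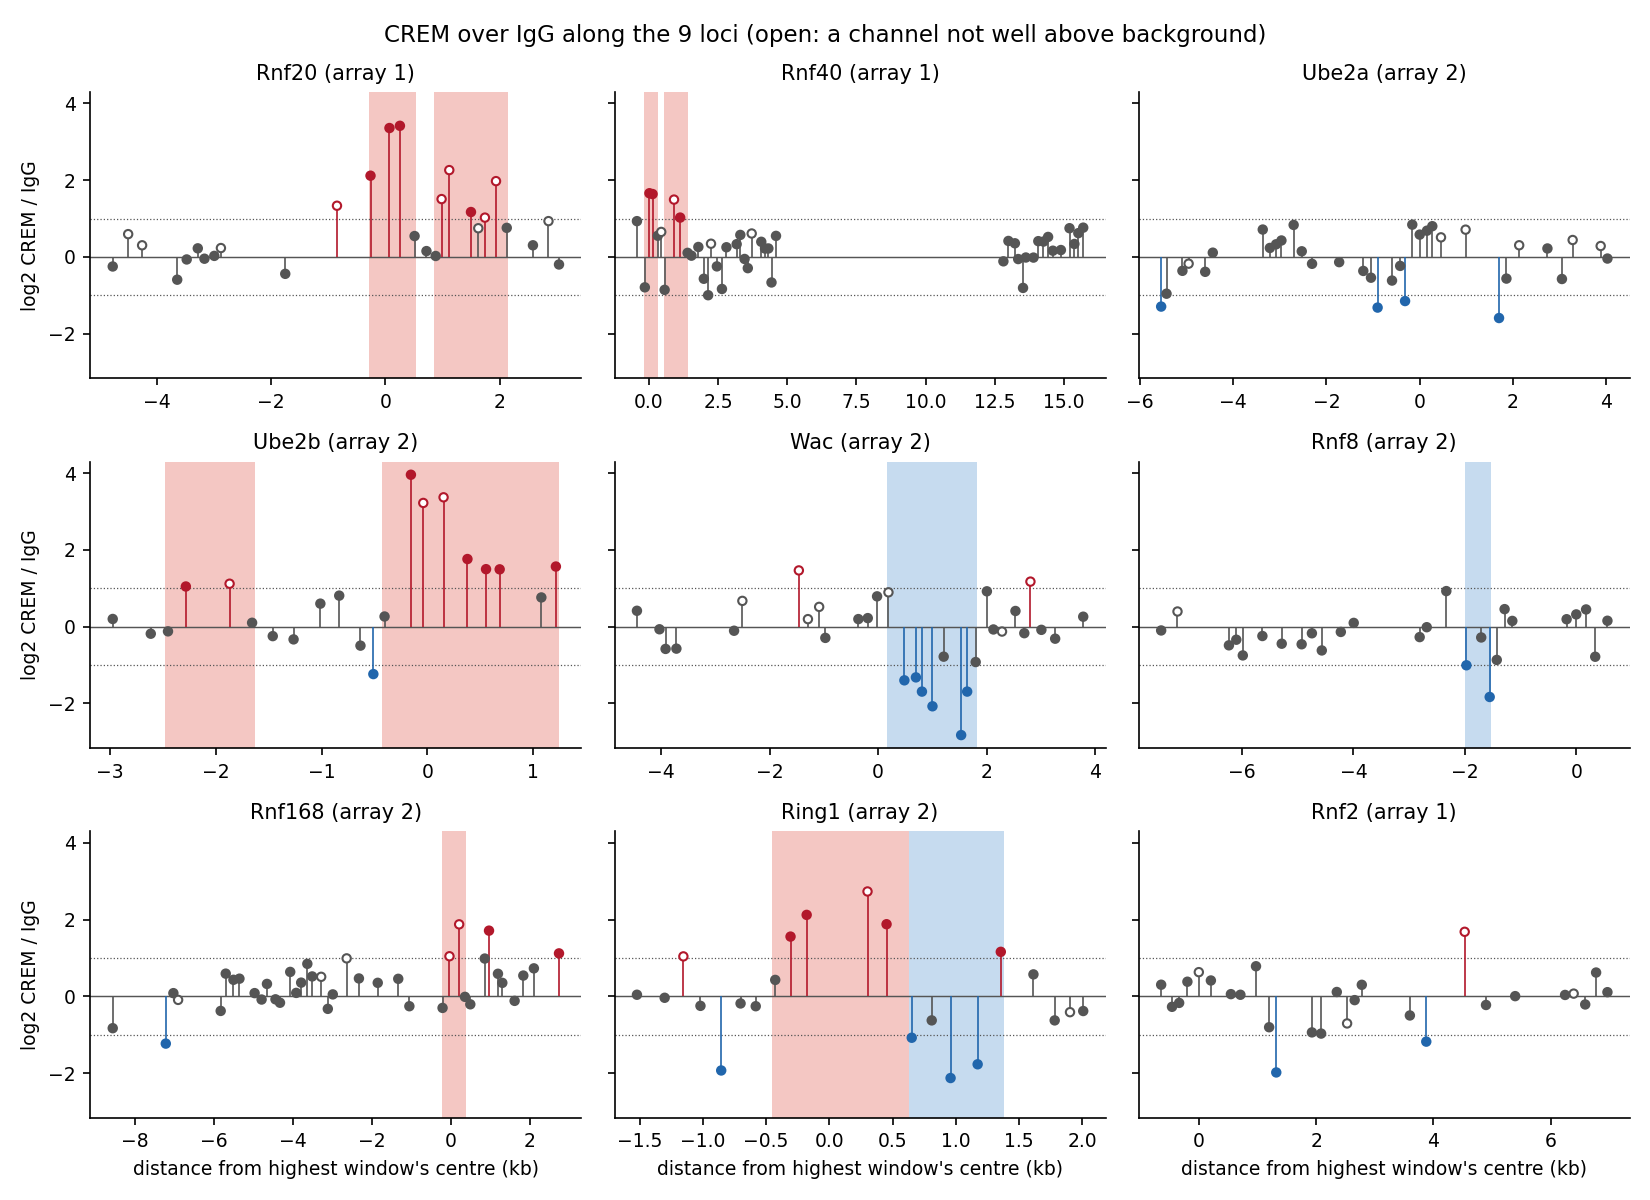
Log2 of CREM over IgG at each probe along the 9 genes, against the distance in kb, along the plus strand, from the centre of the gene's highest window. Red and blue mark probes at 1 or more and at -1 or less, open points have a channel not well above background, dotted lines mark 1 and -1, red bands are CREM-side regions and blue bands IgG-side regions. Ube2b, Rnf20 and Ring1 carry the tallest red points, and Wac carries a block of blue points beside its highest window.

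Wac, the adaptor of the H2B ligase, had the lowest window of the 9 genes. Over chr18:7868337-7869997, a stretch of 1661 bp, 7 windows were at -1 or less. Its probes, in order, stood at 0.89, -1.40, -1.32, -1.69, -2.07, -0.78, -2.82, -1.69 and -0.92. The lowest had signals of 12489 for IgG and 1787 for CREM. All but the first had IgG well above background, and the mean GC content of the stretch was 59.5%. On the CREM side 2 of 31 probes reached 1, at 1.46 and 1.17, both with IgG not well above background, and the highest window was 0.79. With normexp the lowest window was -1.12.

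Rnf8 encodes the ligase that starts histone ubiquitination at DNA breaks. Its lowest window, chr17:29751718-29752180, ran from 16 bp upstream to 446 bp downstream of the start, with probes at -1.01, -0.28 and -1.83. IgG signals there were 10844, 6740 and 1643 and CREM signals 5471, 5618 and 468, and the mean GC content was 74.1%. The highest window of Rnf8 was 0.32, the smallest of the 9, although a single probe centred 355 bp upstream of the start stood at 0.93 on signals of 3545 and 6825. Of its 26 probes 0 reached 1. The IgG-side call was lost under 10 of 16 other settings, with values as high as -0.62.

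Rnf168 encodes the ligase that acts after RNF8. Its highest window, chr16:32276984-32277459, lay 88 to 563 bp upstream of the start with probes at -0.30, 1.04 and 1.88. Only the probe at -0.30 was bright in both channels, and the other 2 had IgG signals of 208 and 228 against CREM signals of 435 and 849. With dim IgG set to the lowest signal called well above background this window's value was 0.58. The call was lost with loess, with the authors' values, with windows of 5 probes and with the highest probe left out, at 0.98 to 0.99. A brighter pair lay downstream of the start: the probe at chr16:32278057-32278102 stood at 0.98 on signals of 3994 and 8010, and that at chr16:32278158-32278216 stood at 1.71 on 5373 and 17833. The latter, centred 640 bp downstream, had the largest CREM signal of the probes at 1 or more in the 9 genes.

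Ring1, a catalytic subunit of polycomb repressive complex 1, had a CREM-side region, chr17:34160371-34161494, that overlapped an IgG-side region, chr17:34161450-34162198. Both regions hold the probe centred 153 bp downstream of the start, at -1.08. From the start downstream, probes centred at 352, 503, 984 and 1111 bp stood at 1.88, 2.73, 2.12 and 1.56. The last 3 make the highest window, chr17:34160490-34161152. The probe at 2.73 had IgG not well above background, 190 against 1281. With dim IgG set to the lowest signal called well above background, it was 4.39-fold. The other 3 were bright in both channels, up to 1325 for IgG and 4939 for CREM. Over the start itself and upstream of it, the probes centred 153 bp downstream and 5, 154 and 368 bp upstream stood at -1.08, -0.63, -2.13 and -1.77. A probe centred 551 bp upstream, still within the IgG-side region, stood at 1.16. Within 1 kb the ratio thus crossed from above 2-fold on the side of CREM to above 2-fold on the side of IgG and back. The IgG-side call of Ring1 was lost with loess at -0.94, with the authors' values at -0.93 and with normexp at -0.81.

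The 2 lowest probes of that stretch are printed for their GC content, which is higher than that of the Rnf20 and Ube2b probes; here capitals mark each CG.
Ring1 probe at -2.13, chr17:34161757-34161801: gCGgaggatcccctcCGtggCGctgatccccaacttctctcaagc
Ring1 probe at -1.77, chr17:34161971-34162015: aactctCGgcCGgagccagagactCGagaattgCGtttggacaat
They hold 3 and 4 CG in 45 bases, with a GC content of 64.4% and 53.3%. Of the Ube2b probes, those at 3.96 and 3.37 hold 0 and that at 3.22 holds 1, and the Rnf20 probes at 2.12, 3.36 and 3.41 hold 0, 2 and 2.

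Rnf2, the alternative catalytic subunit to RING1, was called on neither side, except at -1.39 with windows of 2 probes. Its highest window was 0.41, 1688 to 2148 bp downstream of the start. Its lowest, -0.94 at chr1:153348107-153348581, lay over the start with probes at -0.94, -0.97 and 0.11. A single probe centred 601 bp downstream stood at -1.98 on signals of 6480 for IgG and 1669 for CREM. The probe with the highest ratio, 1.68, had an IgG signal of 127, not well above background.

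**Figure D3:**
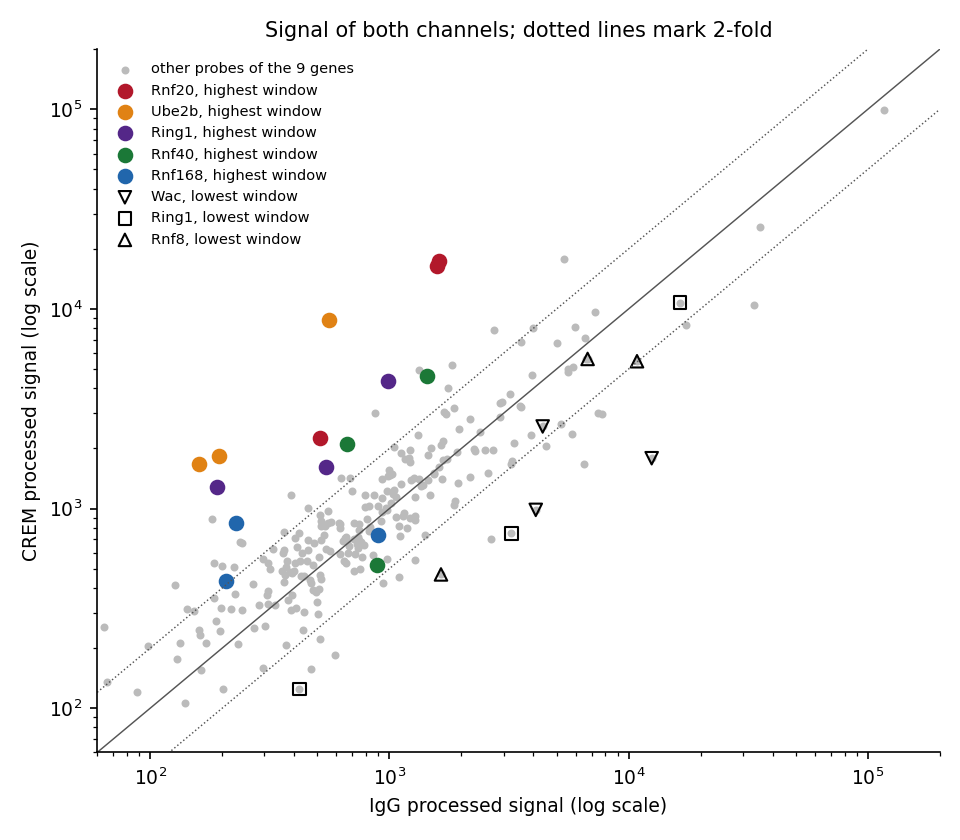
Processed CREM signal against processed IgG signal, both on log axes, for the probes of the 9 genes; the solid line marks equal signal and the dotted lines 2-fold. Coloured points are the probes of the 5 called highest windows, and open black symbols those of the 3 IgG-side lowest windows. Both upper Rnf20 points lie at CREM signals of 16405 and 17397, whereas 2 of the 3 Ube2b points have IgG signals of 193 and 160.

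Over all 9 genes, 270 of 273 probes could be used. Of them 35 were at 1 or more, and in 16 of these IgG was not well above background; of all probes 9.05% on array 1, 9.85% on array 2 and 9.45% over both were at 1 or more. At -1 or less there were 20 probes, all with IgG well above background, against 6.47%, 6.57% and 6.52% of all probes. The median GC content was 39.0% for the probes at 1 or more, 62.2% for those at -1 or less and 40.7% for the 215 in between. Within single genes the rank correlation of ratio and GC content was below 0 for 7 of 9 genes and ran from -0.68 in Ring1 to 0.10 in Rnf168. This is a description over the probes of one hybridisation, which share their labelling and overlap in the DNA fragments they capture. The same slope is seen over all probes, and its part in the values of the 9 genes was not tested beyond removing the median ratio at each GC content. With that trend removed 5 genes were called on the CREM side, where 30.7% of all genes were. On the IgG side 3 were, where 12.8% of all genes were: Wac at -1.24, Ring1 at -1.14 and Ube2a at -1.03, while Rnf8 stood at -0.62.

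**Figure D4:**
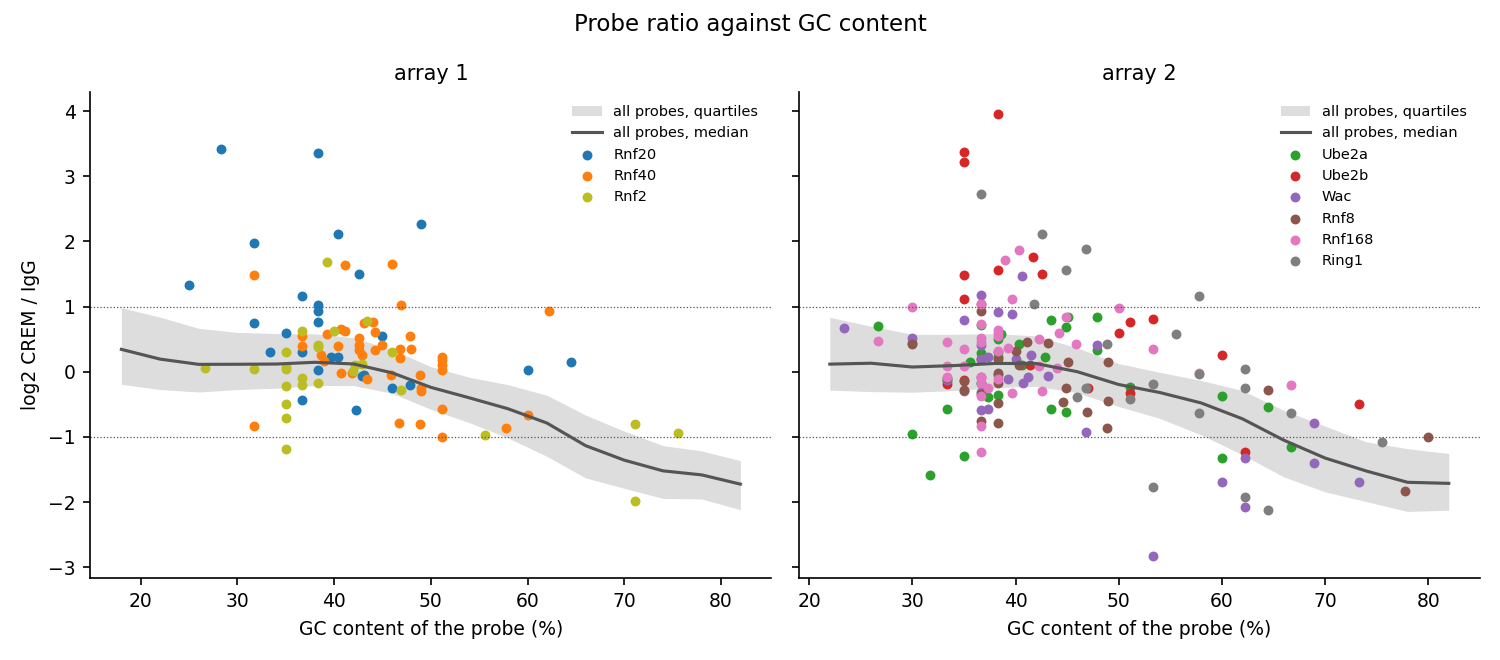
Log2 of CREM over IgG against the GC content of the probe for the 9 genes, by array; the line is the median and the grey band the quartiles of all probes used, in classes of 4% GC. The line is near 0 in the class from 44% to 48% GC and below 0 in all classes of higher GC. The Ring1 and Wac probes at -2.13 and -2.82 lie under it, and the high Rnf20 and Ube2b probes lie far above it.

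For the 7 genes with a start that matched a probe, the 17 probes within 250 bp of it had a median ratio of -0.63, with 13 below 0, and a median GC content of 62.2%. Over all probes in the class from 60% to 64% GC, the median ratio was -0.79 on array 1 and -0.72 on array 2. Distances in Ube2b were taken from its first start only, so its probe over the second start, at -0.49, counts as beyond 250 bp. The 46 probes beyond 250 and up to 1000 bp away had a median of 0.40, and 12 of them were at 1 or more. The 149 probes farther away had a median of 0.11, and 10 of them were at 1 or more. Within 250 bp of the start 2 of the 17 probes were at 1 or more, Ube2b at 3.96 and Rnf168 at 1.88, against 24 of all 212 probes of these genes. Probes that carry the name of a neighbour were not counted.

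The full response element was in 0 of the 270 probes, and 0.0631% and 0.0508% of probes on arrays 1 and 2 hold it. The core was in 8 of 270, or 2.96%, against 2.06% and 2.11% of all probes used. Among the 35 probes at 1 or more, 1 held the core, the Rnf20 probe printed above. The other 7 probes with the core stood between -0.78 and 0.11, and 0 of the 20 probes at -1 or less held it. An absent match says only that these letters are not within the probe, which is 45 to 60 bases long.

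The other genes of the pathway were taken as 6 lists of 75 genes in all, of which 65 had a window. Of the 65, 40 were called on the CREM side, which is 61.5% against 34.4% of all genes, and 29 had an IgG-side window, which is 44.6% against 33.6%. Their median highest window was 1.24 and that of all genes 0.77, with a median of 19 windows per gene in both. The lists were put together with earlier results of these arrays known, and these shares are descriptions.

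Cofactors of H2B ubiquitination were called in 4 of 7 cases, and 4 of 7 had an IgG-side window. Both shares were 57.1%, against 34.4% and 33.6% of all genes. The highest were Wdr61, at 2.77, and Leo1, at 1.95, both subunits of the PAF1 complex that guides the RNF20 and RNF40 ligase to transcribed genes. The lowest was Cdc73, of the same complex, with a lowest window of -1.61 beside a highest window of 1.83. The probes of the Wdr61 window spanned 0.73 to 2.78 and those of the Leo1 window -0.39 to 2.31. In the RNF8 and RNF168 pathway 10 of 14 genes were called, or 71.4%. An IgG-side window was found in 5, or 35.7%, near the 33.6% of all genes. Brca1, a ligase that is recruited to ubiquitinated chromatin at breaks, was highest at 3.37, although its window spanned probes from 0.04 to 4.07 and only 1 of them was bright in both channels. Trp53bp1, a reader of the mark set by RNF168, had 1.85, and Uimc1, which binds ubiquitin chains, had the lowest window of the list at -1.84.

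Of the genes of polycomb repressive complex 1, 5 of 16 were called on the CREM side, or 31.3% against 34.4% of all genes, and 11 of 16 had an IgG-side window, or 68.8% against 33.6%. Phc1 at 2.62 and Cbx8 at 2.45 were its highest genes, each with all 3 probes bright in both channels. Both are non-catalytic subunits, and Cbx8 also had an IgG-side window, at -1.25. Of the histone deubiquitinases and their partners, 11 of 13 were called, or 84.6%. An IgG-side window was found in 4, or 30.8%, near the 33.6% of all genes. Usp49, an enzyme for H2B, had 2.14 in a window whose probes spanned -1.20 to 2.48, only 1 of them bright in both channels. Its lowest window, at -1.23, was on the IgG side. Bap1, an enzyme for H2A, had 2.13 with its 3 probes between 2.09 and 2.18, and Usp3 was the lowest at -1.72. The probes of that Usp3 window spanned -2.92 to 2.12, with 2 of them bright in both channels.

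Among genes for ubiquitin itself and its activating enzymes, 4 of 6 were called, or 66.7% against 34.4% of all genes. An IgG-side window was found in 0, against 33.6% of all genes. The polyubiquitin gene Ubb had the highest window of the 6 lists, 4.11, and Uba6, an activating enzyme, had 2.97. The Ubb window's probes spanned 1.53 to 4.29 and those of Uba6 -0.50 to 4.10. In each window 2 probes were bright in both channels. Of the genes tied to histone removal in spermatids, 6 of 9 were called and 5 had an IgG-side window, or 66.7% and 55.6%. Kat5, an acetyltransferase, had 2.63, Psme4, the proteasome activator that acts on acetylated histones, had 1.90, and Epc1, which works with acetyltransferases in spermatids, was lowest at -2.59. The Kat5 window's probes spanned -0.35 to 2.68 and those of Psme4 0.98 to 3.44, with 2 bright in both channels in each. Psme4 also had an IgG-side window, at -1.99.

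**Figure D5:**
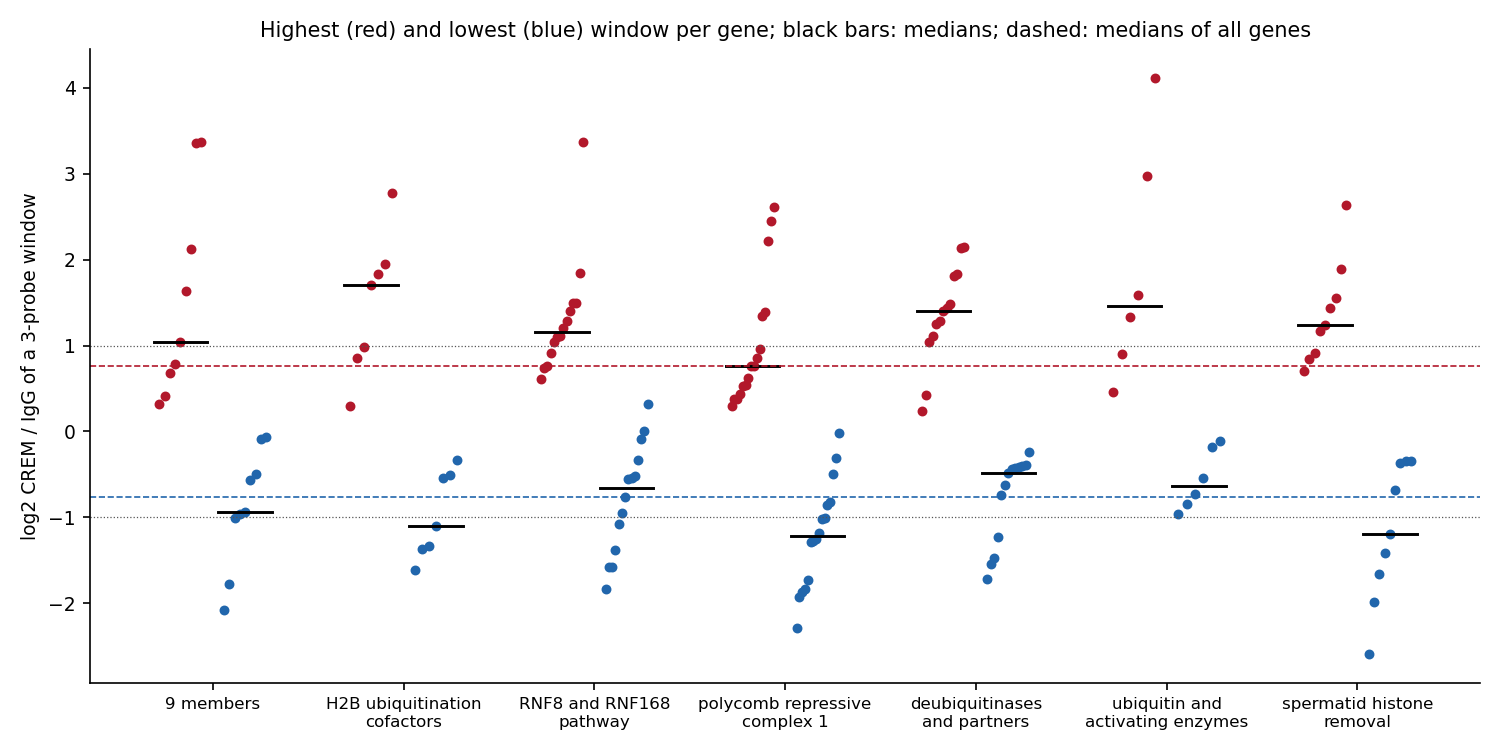
Highest (red) and lowest (blue) window per gene, as log2 of CREM over IgG, for the 9 genes and the 6 lists of other pathway genes; each point is a gene and black bars are medians. Dashed lines are the medians of all genes, 0.77 and -0.76, and dotted lines mark 1 and -1. Ubb at 4.11 is the highest point, and the polycomb list has a median highest window of 0.76.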

How the data were processed

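The members and the pathway lists were chosen with earlier results of these data known. Agilent Feature Extraction 10.7.1.1 made the scanner files, and probe positions are in build mm9, both per the file headers. In these deposited files each channel has an intensity, here the processed signal, from which the scanner software had taken the background and which it had scaled between dyes. Other deposited columns are flags for outlier spots and for spots well above background. The authors' deposited log2 ratios turned out, when recomputed, to be limma's within-array loess of background-subtracted signals, with a largest difference of 5e-08. Versions in the submitters' processing notes are R 2.10.1, and limma without a number.

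Here the ratio of processed signals was centred on each array's median (shifts of 0.02 on both), without loess. Left out were control and outlier spots, unplaced probes and probes dim in both channels, which left 228277 and 226404 probes, median GC content 40.4% on both. CREM was well above background for 96.3% and 95.5% of probes, IgG for 77.4% and 78.5%. Depth has no meaning for arrays, and 1 hybridisation per array limits the precision. Windows were runs of 3 probes whose starts lay no more than 500 bp from the next, assigned to the gene of the middle probe, and called windows sharing a probe formed a region. Where a dim channel was set to a floor, this was the lowest signal called well above background on its array, 306 and 288 for IgG. It is not a strict limit: Rnf20 probes with IgG signals of 308 and 312 were not called well above background. Starts were placed by exact match of probes to RefSeq promoter sequences (GRCm38.p6, 250 bases before to 50 after). The mm9 genome and its annotation were not used here, and exons, introns and UTRs are therefore left out.

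Text names all 9 members and, of each list, the 2 highest genes by highest window and the lowest by lowest window. Some genes that this rule picks are not reported here. Settings tried were normexp (offset 50), loess, the authors' values, no centring, removal of the GC trend, other filters, windows, gaps and thresholds. The scripts were tested on simulated data. Tools were R 4.3.3, limma 3.58.1, Python 3.11.15, numpy 2.4.6, pandas 2.3.3, scipy 1.17.1 and matplotlib 3.10.9.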

Additional observations from a re-analysis of the deposited data

How the results depend on the processing

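Rnf20, Ube2b and Ring1 were called on the CREM side under all 16 settings that kept the 2-fold threshold, with highest windows from 2.12 to 3.47, 1.57 to 3.59 and 1.56 to 2.43. The lowest Ube2b value, 1.57, came from using only probes well above background in both channels. Rnf40 was at 0.63 with normexp and called under the other 15, and Rnf168 was called under 12, from 0.98 to 1.59. Wac was on the IgG side under all 16, from -2.26 to -1.12, Ring1 under 13, Rnf8 under 6, Ube2a under 2 and Rnf2 under 1. No value changed sign past a threshold.

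The count of genes on the IgG side, 3, was 1 with normexp, with loess and with the authors' values, and 5 with windows of 2 probes and at a 1.5-fold threshold. The share of all genes on that side was 3.70% with normexp, 21.8% with loess and 21.7% with the authors' values. It was 46.3% with windows of 2 probes and 64.5% at 1.5-fold. Of the pathway genes, 40 called on the CREM side became 26 with normexp and with windows of 5 probes and 18 at a 3-fold threshold, where 16.2%, 19.8% and 12.02% of all genes were called against 34.4%. They were 27 with only probes bright in both channels, against 20.8% of all genes. With loess and with the authors' values they were 31, against 17.2% and 17.3%. With the highest probe left out they were 33, against 24.1%. They rose to 50 with windows of 2 probes and 55 at 1.5-fold, against 49.0% and 64.3%. The 29 with an IgG-side window became 2 with normexp, 8 with the GC trend removed, 15 with windows of 5 probes, 16 with each gene's highest or lowest probe left out and 11 at 3-fold. The share of all genes on the IgG side, 33.6%, was then 3.70%, 12.8%, 17.7%, 18.2% and 11.2%; the cause was not tested. No paired analysis was possible because each array held different probes and was hybridised once. Setting a dim channel to its floor was chosen after seeing the data.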

Other observations

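Some high probes beside these genes carry the name of a neighbour and so did not enter the counts. Beside Rnf40, a probe named for Gm166 (now Ccdc189), chr7:134732173-134732230, had a ratio of 3.17, above any Rnf40 probe. Its IgG signal was not well above background, and the highest window of Gm166 was 0.93. That probe lies upstream of the Rnf40 probe at chr7:134732367-134732411, which is centred 50 bp upstream of the second Rnf40 start. The first RefSeq start of Rnf40 lies farther upstream than the second. The distance of the Gm166 probe to either start was not computed, so it may belong to the Rnf40 promoter. Beside Ube2b, Cdkl3, which encodes a protein kinase, had a highest window of 2.13 and a probe at 3.09, again with a dim IgG signal. H2-Ke6, next to Ring1, had a highest window of 1.21, and Slc39a7, a zinc transporter gene there, had 0.74. The 2 probes of C330007P06Rik near Ube2a stood at -0.44 and -0.88, while that gene's highest window was 1.95.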
